A study of Mus musculus with 16 samples.

Results

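The 34 genes described here are Vegfa, the sensors and transcription factors of the hypoxia response, the enzymes of glycolysis and a set of other hypoxia-induced genes. They were taken by symbol from the authors' deposited tables of multipotent progenitors (MPP) and granulocyte-monocyte progenitors (GMP), in which all 34 were found among 23420 rows. The list was selected on gene function with the log2 fold changes, errors and means of both tables already known, so the members' values are descriptions. The progenitors were sorted from the bone marrow of mice 40 weeks old. Libraries labelled Tet2KO came from mice with the genotype Tet2-/-, and libraries labelled WT came from mice with the genotype Tet2fl/fl, a floxed allele. The labels describe the mice as having wild-type or Tet2-deficient hematopoiesis, and the driver of the deletion is not given in the sources used here. GMP were Lin- cKit+ Sca1- CD150- CD16/32+ and MPP were Lin- cKit+ Sca1+ CD48+ CD150- cells after erythrolysis and enrichment for Kit. Each population was taken from 4 Tet2KO and 4 WT mice, and 3 mice of each genotype gave both populations.

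Glycolysis splits glucose into pyruvate in the cytosol, and lactate dehydrogenase turns pyruvate into lactate. When oxygen is scarce, prolyl hydroxylases of the Egln family no longer mark HIF alpha subunits for the von Hippel-Lindau protein, and the stabilised subunit pairs with Arnt and binds hypoxia response elements with the core ACGTG or GCGTG. HIF targets include Vegfa, most glycolytic enzymes and several mitophagy and stress genes, and the bone marrow, where blood progenitors live, is a tissue of low oxygen. TET2 is an enzyme that oxidises 5-methylcytosine in DNA.

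For each gene the tables hold 1 mean over the 8 libraries of a population and, for Tet2KO against WT, a log2 fold change, its standard error (SE) and DESeq2 p-values adjusted over the table. No value per library is in them, so the libraries of a group could not be set side by side, and the depth of each library is unknown. Genes counted here as tested carry an adjusted p, which the tables give where the mean was at least 10 and no outlier was marked. Called means an adjusted p under 0.05. All fold changes of Tet2KO against WT, their SEs and adjusted p-values given below are those of the authors' deposited tables unless another test is named. Tet2 itself was higher in the libraries labelled Tet2KO and was called in both populations. Its log2 fold change was 0.35 in GMP (SE 0.0748, adjusted p = 0.000409, DESeq2) in the authors' deposited table. In MPP it was 0.44 (SE 0.0992, adjusted p = 0.00551, DESeq2). These values cover the whole gene and do not check a deletion, so each direction below rests on the names of the tables. Of the gate genes, Kit had a mean of 6397 in GMP and 7542 in MPP, Fcgr3 one of 525 in GMP and 19.3 in MPP, and Ly6a, which encodes Sca1, one of 19.5 in GMP and 266 in MPP.

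Vegfa was the gene of smallest p among all genes with a p in the GMP table. Outlier-marked genes carry none, among them the mast cell and basophil marker Ms4a2 (-1.28, SE 0.146). Vegfa encodes the secreted growth factor that drives endothelial growth and is a textbook HIF target. In GMP it fell by 0.92 on the log2 scale in Tet2KO (SE 0.108, adjusted p = 2.11e-13, n = 4 Tet2KO and 4 WT, DESeq2) in the authors' deposited table. Its level was thus 0.529 times that of WT, a change of -47.1% with a 95% interval from -54.4% to -38.8%. In MPP the authors' deposited table gave -0.63 (SE 0.205), 0.644 times the WT level, with a 95% interval of the log2 fold change from -1.04 to -0.23. This value was not called (adjusted p = 0.143, DESeq2). Among tested genes Vegfa lay at percentile 0.2 of the log2 fold changes in GMP and at percentile 1.1 in MPP. Its mean was 253 in GMP and 143 in MPP. It was 1 of 3 members called in GMP, where 3.96% of all tested genes were called, and no member was called by DESeq2 in MPP, where 0.616% were. In bulk RNA, fewer cells that express a gene and less RNA per cell cannot be told apart.

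**Figure D1:**
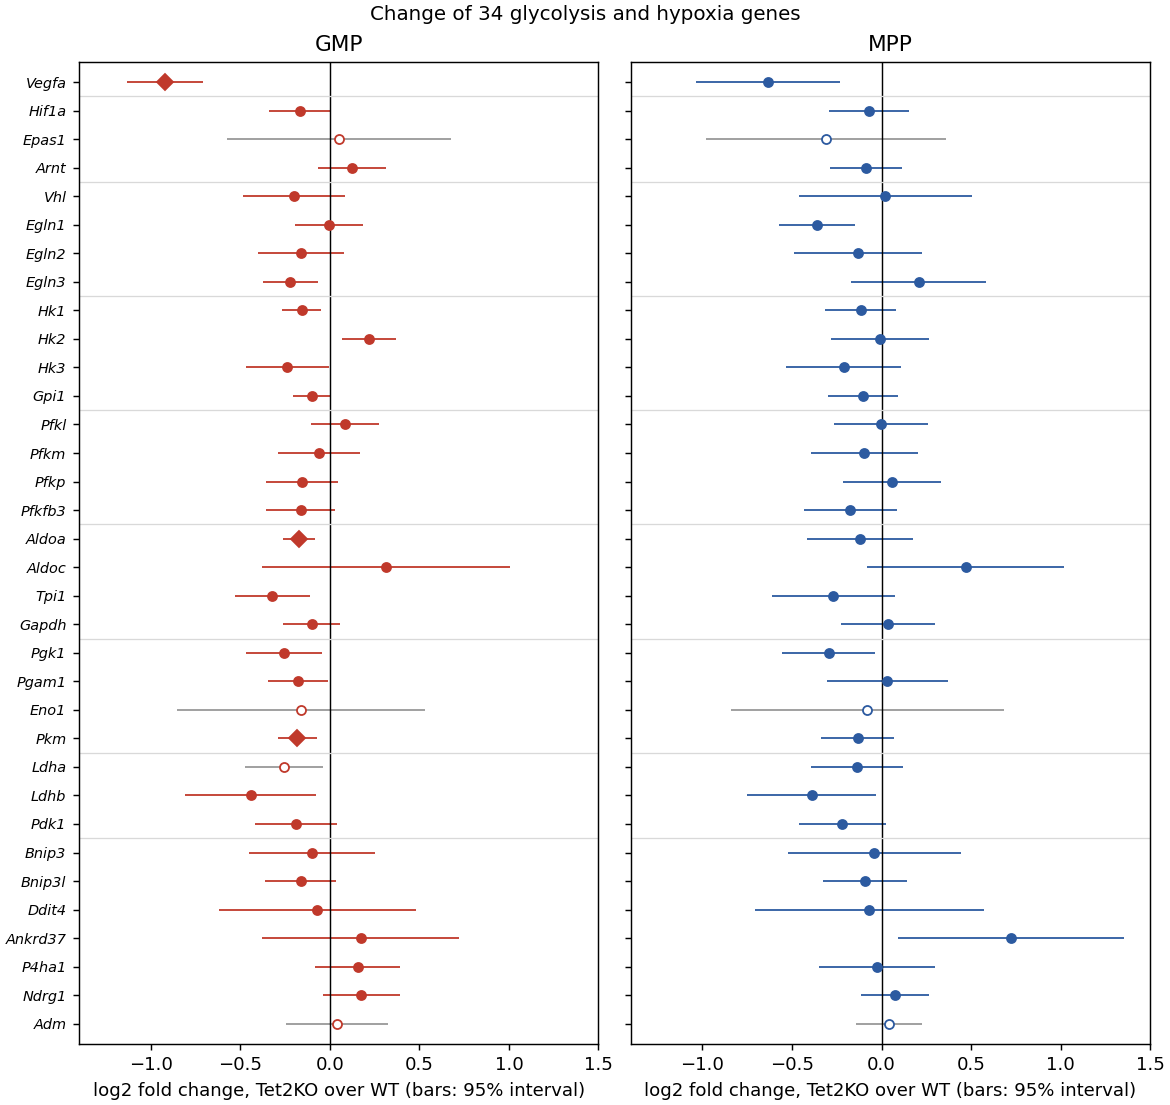
Log2 fold change (Tet2KO over WT, x axis) for the 34 genes (y axis), in GMP (left) and MPP (right), from the authors' deposited tables. Bars are 95% intervals, diamonds are called genes, open points were not tested, and lines separate the roles. Vegfa is far left of 0 in both panels, at -0.92 and -0.63, and most other members lie slightly left of 0.

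Vegfa lies on chromosome 17 from 46016993 to 46032369 on the minus strand (mm10, GENCODE M21). The promoters of 4 members known as HIF targets are printed to show where hypoxia response cores stand in them. They are the 250 bases before a RefSeq start (GRCm38.p6), 5′ to 3′, with ACGTG and GCGTG cores of either strand in capitals. The windows are chr17:46032378-46032627 (minus) for Vegfa, chr7:126799255-126799504 (minus) for Aldoa, chr7:46845554-46845803 (plus) for Ldha and chr12:54203875-54204124 (minus) for Egln3.
Vegfa: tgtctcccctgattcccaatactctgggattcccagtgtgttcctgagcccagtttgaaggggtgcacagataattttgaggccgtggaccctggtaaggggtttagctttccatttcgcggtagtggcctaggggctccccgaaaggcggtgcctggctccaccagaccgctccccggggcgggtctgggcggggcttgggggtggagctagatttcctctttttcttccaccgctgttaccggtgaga
Aldoa: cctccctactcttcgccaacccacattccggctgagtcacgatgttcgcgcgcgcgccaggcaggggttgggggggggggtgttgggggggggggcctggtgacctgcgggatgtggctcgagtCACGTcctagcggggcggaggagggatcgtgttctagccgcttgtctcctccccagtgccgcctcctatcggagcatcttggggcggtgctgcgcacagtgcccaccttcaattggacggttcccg
Ldha: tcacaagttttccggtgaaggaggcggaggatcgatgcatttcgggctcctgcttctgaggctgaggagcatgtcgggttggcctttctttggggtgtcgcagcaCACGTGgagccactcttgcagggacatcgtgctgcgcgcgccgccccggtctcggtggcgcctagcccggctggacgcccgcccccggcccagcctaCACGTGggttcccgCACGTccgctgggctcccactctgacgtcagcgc
Egln3: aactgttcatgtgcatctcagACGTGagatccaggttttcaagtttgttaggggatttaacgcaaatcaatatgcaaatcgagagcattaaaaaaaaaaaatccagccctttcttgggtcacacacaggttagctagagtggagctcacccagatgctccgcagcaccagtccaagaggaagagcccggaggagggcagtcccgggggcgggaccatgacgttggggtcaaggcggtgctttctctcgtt
The Vegfa window held no core, and from that nothing follows about HIF, whose well-known element in this gene lies further upstream. A second Vegfa window, before an internal RefSeq start, held 2 cores, and all 10 of their bases were in coding sequence. The Aldoa window had its core 126 bases before the start, and the Egln3 window had its core 229 bases before. The Ldha window held 5 cores, of which those at 145 and 144 and those at 48 and 47 bases before the start overlap in CACGTG, an E-box that reads as ACGTG on both strands.

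RefSeq promoter windows of 250 bases before to 50 after a start were found for 31 of the 34 genes. ACGTG was in 24 of the 46 windows of these genes (52.2%), against 25.8% of the 10914 windows of genes tested in GMP and 19.6% of all 32851 windows. With GCGTG counted as well, it was 80.4% of member windows, against 62.1% of those of tested genes. CACGTG was in 13.0% of member windows, against 10.2%. Some genes have several windows, and overlapping windows of Aldoa hold the same ACGTG. By gene, ACGTG was in 21 of the 31 members with a window (67.7%), against 29.8% of 8575 genes tested in GMP. Many of the genes are known hypoxia targets, so these shares describe the list. Split by ACGTG alone, members with and without it had close medians. Of those without it, Arnt, Pfkl, Pfkp, Ldhb and Pdk1 hold GCGTG. The split therefore does not compare members with and without a hypoxia response core. In GMP the median log2 fold change was -0.16 for the 20 tested members with ACGTG and -0.17 for the 8 without. In MPP it was -0.10 for 21 and -0.10 for 8. Vegfa counts as having ACGTG only through its window before an internal start, where the core is coding sequence.

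Among the HIF subunits no gene was called. Hif1a, the alpha subunit that is broken down in oxygen, had a log2 fold change of -0.17 in GMP (SE 0.0872, 95% interval -0.34 to 0.00) and of -0.07 in MPP (SE 0.114) in the authors' deposited tables. Arnt, the constant partner of the alpha subunits, had 0.12 (SE 0.0974) in GMP and -0.09 (SE 0.103) in MPP. Epas1, which encodes HIF-2 alpha, had means of 3.28 in GMP and 2.96 in MPP, under the minimum for a test. Hif1a was far more abundant, at 226 per kb of exon in GMP and 165 in MPP, against 0.586 and 0.530 for Epas1.

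The genes that turn HIF off were not called either. The lowest adjusted p among all members in MPP was that of Egln1, the main HIF prolyl hydroxylase, with a log2 fold change of -0.36 (SE 0.108, adjusted p = 0.0995, DESeq2) in the authors' deposited table. In GMP Egln1 was at -0.0046 (SE 0.0974). Egln3, a hydroxylase that HIF itself induces, had -0.22 in GMP (SE 0.0794, adjusted p = 0.0913, DESeq2) and 0.21 in MPP (SE 0.193) in the authors' deposited tables. Egln2, another hydroxylase of the family, had -0.16 in GMP and -0.13 in MPP. Vhl, the substrate receptor of the ubiquitin ligase, had -0.20 in GMP and 0.02 in MPP.

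Most glycolytic enzyme genes lay slightly below 0 in GMP, and 2 of them passed the test. Of 16 genes from hexokinase to pyruvate kinase 15 were tested in each population. In GMP 12 lay below 0 and 3 above, with a median log2 fold change of -0.16, and in MPP 11 lay below and 4 above, with a median of -0.10. The medians of all tested genes were 0.00025 in GMP and -0.0038 in MPP, and 3.96% of them were called in GMP. Among tested genes with a mean of at least 500, 58.9% lay below 0 in GMP and 51.4% in MPP. Aldoa, the aldolase that splits fructose bisphosphate, fell by 0.17 in GMP (SE 0.0452, adjusted p = 0.00769, DESeq2) in the authors' deposited table, a change of -11.4% with a 95% interval from -16.6% to -5.74%. Pkm, pyruvate kinase, fell by 0.18 in GMP (SE 0.0558, adjusted p = 0.0361, DESeq2), a change of -11.8%. With an empirical null for the statistic the adjusted p was 0.283 for Aldoa and 0.496 for Pkm, and over the other alternatives it ran from 0.00695 to 0.0129 for Aldoa and from 0.0332 to 0.0601 for Pkm.

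Aldoa and Pkm had some of the smallest errors of the table. The SE of Aldoa in GMP was at percentile 0.148 of all tested genes and that of Pkm at percentile 1.76, at means of 2534 and 2981. Tpi1, triosephosphate isomerase, had a larger log2 fold change of -0.32 but an SE of 0.107, and was just outside the threshold (adjusted p = 0.0592, DESeq2) in the authors' deposited table. In MPP Aldoa had -0.12 (SE 0.151), Pkm -0.13 (SE 0.104) and Tpi1 -0.27 (SE 0.176), and none was called.

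The first steps of the pathway went different ways in GMP without a call. Hk2, the inducible hexokinase, had a log2 fold change of 0.22 in GMP (SE 0.0765, adjusted p = 0.0780, DESeq2) and of -0.0094 in MPP in the authors' deposited tables. Hk1, the ubiquitous hexokinase, had -0.16 in GMP (SE 0.0566, adjusted p = 0.0889, DESeq2), and Hk3, the myeloid one, -0.24 (SE 0.118). Their values in MPP were -0.12 and -0.21. Gpi1, glucose phosphate isomerase, had -0.10 in both. Of the phosphofructokinase genes, which set the pace of the pathway, Pfkl had 0.08 in GMP, Pfkm -0.06 and Pfkp -0.16, and the values in MPP were -0.0019, -0.10 and 0.06. Pfkfb3, which makes the activator of phosphofructokinase, had -0.16 in GMP and -0.17 in MPP.

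Of the later steps, Gapdh had -0.10 in GMP (SE 0.0823, 95% interval -0.26 to 0.06) and 0.04 in MPP (SE 0.133), and in GMP the interval of the percent change ran from -16.6% to 4.23%. Pgk1, phosphoglycerate kinase, had -0.26 in GMP (SE 0.108) and -0.30 in MPP (SE 0.132), with 95% intervals below 0 in both and no call in either in the authors' deposited tables. Pgam1, phosphoglycerate mutase, had -0.18 in GMP and 0.03 in MPP. Aldoc, the aldolase of brain, was measured near the minimum in GMP, with a mean of 10.1, and had 0.32 (SE 0.353) there and 0.47 (SE 0.280) in MPP.

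Lactate dehydrogenase genes lay below 0 in both populations. Ldhb, the subunit that favours lactate oxidation, had -0.44 in GMP (SE 0.187, adjusted p = 0.181, DESeq2) and -0.39 in MPP (SE 0.183, adjusted p = 0.453, DESeq2) in the authors' deposited tables. After Vegfa these were the lowest values of tested members in either population. Ldha, the subunit that favours lactate formation and a HIF target, was marked as an outlier in GMP and carries no p-value there. Its log2 fold change was -0.25 (SE 0.111) in GMP and -0.13 (SE 0.131) in MPP. With outlier-marked genes given a p from the fold change and its SE, Ldha in GMP was still not called (adjusted p = 0.201 by Benjamini-Hochberg over that table). Pdk1, a kinase that inhibits pyruvate dehydrogenase, had -0.19 in GMP (SE 0.117) and -0.22 in MPP (SE 0.123).

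None of the other hypoxia-induced members was called. In GMP 3 of the 6 tested lay below 0 and 3 above, with values from -0.16 for Bnip3l, a mitophagy receptor, to 0.17 for Ndrg1, a stress-induced gene of the NDRG family. Bnip3, its paralogue, had -0.10, Ddit4, an inhibitor of mTORC1, -0.07, and P4ha1, a collagen prolyl hydroxylase, 0.16. Ankrd37, an ankyrin repeat protein gene, had 0.17 (SE 0.280). In MPP the values ran from -0.09 for Bnip3l to 0.72 for Ankrd37 (SE 0.321, adjusted p = 0.413, DESeq2), in the authors' deposited table. Ankrd37 had a mean of 19.5 in MPP. Adm, which encodes the peptide adrenomedullin, had means of 0.353 in GMP and 0.133 in MPP and was not tested.

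Over the whole set 3 of 30 tested members were called in GMP, all lower, beside 3.96% of all 11503 tested genes called, 2.22% lower and 1.75% higher. In MPP 0 of 31 were called by DESeq2, beside 0.616% of 11859 genes, 0.27% lower and 0.346% higher. At an unadjusted p under 0.05 there were 11 members in GMP, 10 of them lower, beside 16.4% of all tested genes, and 5 in MPP, 4 of them lower, beside 9.72%. These calls come from the contrasts that chose the list. In GMP 23 of 30 tested members lay below 0, with a median of -0.16, and in MPP 23 of 31, with a median of -0.09. Members are mostly abundant RNAs, with a mean of at least 500 for 20 of 30 in GMP. Among all 4236 tested genes with such a mean in GMP, 58.9% lay below 0 and the median was -0.03. In MPP 51.4% of the 3978 tested genes with such a mean lay below 0. The part of expression level in the shift of the members was not tested.

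**Figure D2:**
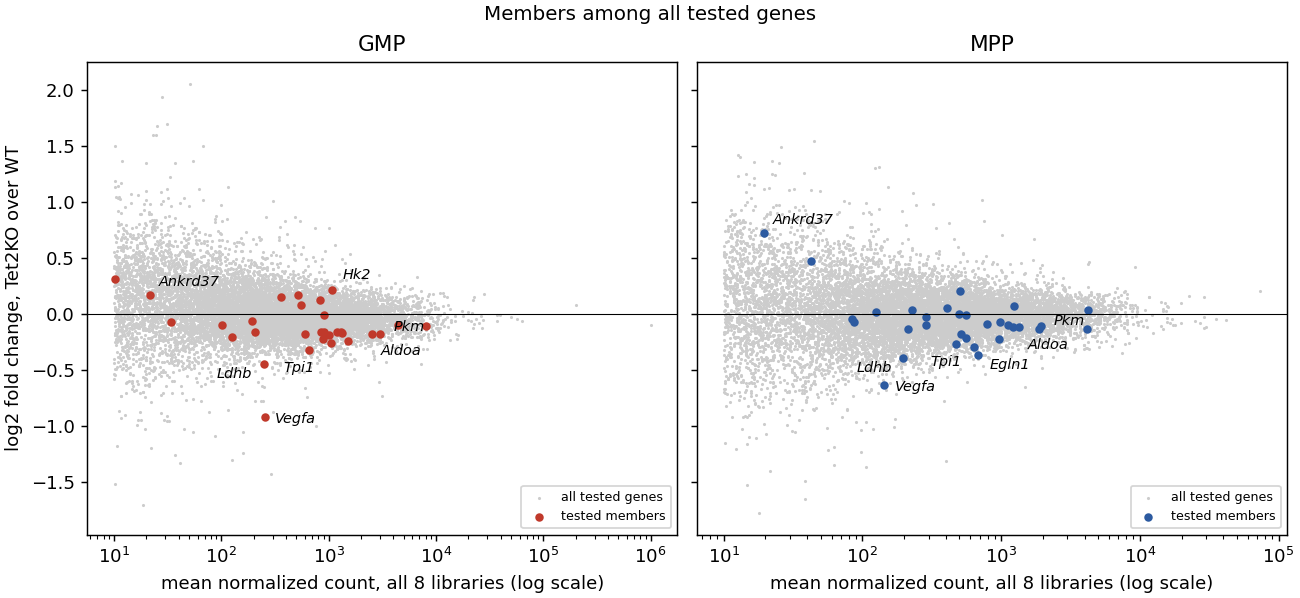
Mean normalized count (log x axis) against log2 fold change (Tet2KO over WT, y axis), in GMP (left) and MPP (right), with all tested genes in grey and tested members in colour. Vegfa at -0.92 stands at the lower edge of the GMP cloud, while Aldoa and Pkm at -0.17 and -0.18 lie within it.

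No member had a change that differed between the populations past the threshold. The difference of the log2 fold changes, GMP minus MPP, was tested over 17660 genes, of which 0.0453% passed, and over the 33 members with a p-value in both tables it was called for 0. The errors of the tables were treated as independent, and 3 mice of each genotype are in both. At an unadjusted p under 0.05 there were 2 members, both hydroxylases. For Egln1 the difference was 0.36 (SE 0.145, 95% interval 0.07 to 0.64), and for Egln3 it was -0.43 (SE 0.208, 95% interval -0.84 to -0.02). Both had an adjusted p of 0.999925 by Benjamini-Hochberg adjustment of the difference test. For Vegfa the difference was -0.29 (SE 0.231, 95% interval -0.74 to 0.17). For Aldoa it was -0.05 (SE 0.158) and for Pkm -0.05 (SE 0.118).

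**Figure D3:**
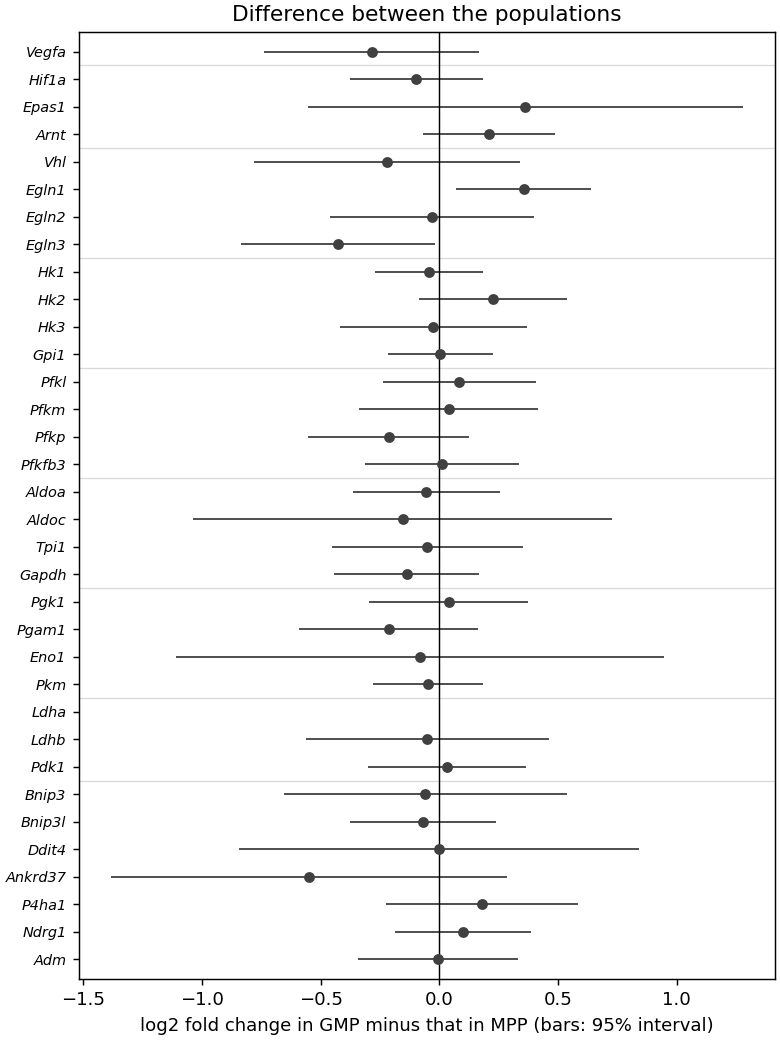
Log2 fold change in GMP minus that in MPP on the x axis for the members on the y axis, with 95% intervals that take both tables as independent. Ldha has no p-value in GMP and no point. The intervals of Egln1 (0.07 to 0.64) and Egln3 (-0.84 to -0.02) leave out 0, and neither passed after adjustment.

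Per kb of exon, Ldha and Gapdh were the most abundant members. Their means per kb, over Tet2KO and WT libraries together, were 2175 and 1967 in GMP, followed by Aldoa at 871, Gpi1 at 682 and Pkm at 596. In MPP the order of the first ones was Ldha at 1251, Gapdh at 1021, Aldoa at 462, Pkm at 375 and Gpi1 at 301. Vegfa was far below, at 58.9 per kb in GMP and 33.4 in MPP. Of the hexokinases, Hk3 had 415 per kb of exon in GMP, against 179 for Hk2 and 142 for Hk1. In MPP Hk3 had 152, Hk1 142 and Hk2 93.0. The summed exons of Hk1 span 8532 bases, against 3851 in its principal transcript. For Hk3 these lengths are 3682 and 3219, and for Hk2 5969 and 5513. The order of the hexokinases therefore depends on the length used. The tables give no spread of a level over libraries, so neighbours in this order cannot be told apart.

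Most glycolytic enzymes took a larger share of the RNA in GMP than in MPP. The tables were normalized separately, so each mean was taken as a share of its table's summed means. Among members, 28 reached a mean of 50 in each table, and 19 of them had a log2 ratio above 0, with a median, GMP over MPP, of 0.23, while the median of all 9536 such genes was -0.11. The highest were Hk3 (1.22), Pgam1 (1.18), Gpi1 (0.95), Pfkp (0.83), Gapdh (0.72) and Hk2 (0.72), all as log2 ratios. Vegfa had 0.59 and its percentile among all such genes was 95.7. Ndrg1 (-1.47) and Pfkm (-0.81) had the lowest ratios of these members. With scaling by the median ratio Pfkl had 0.03 in place of -0.08 and Bnip3l 0.10 in place of -0.0077.

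**Figure D4:**
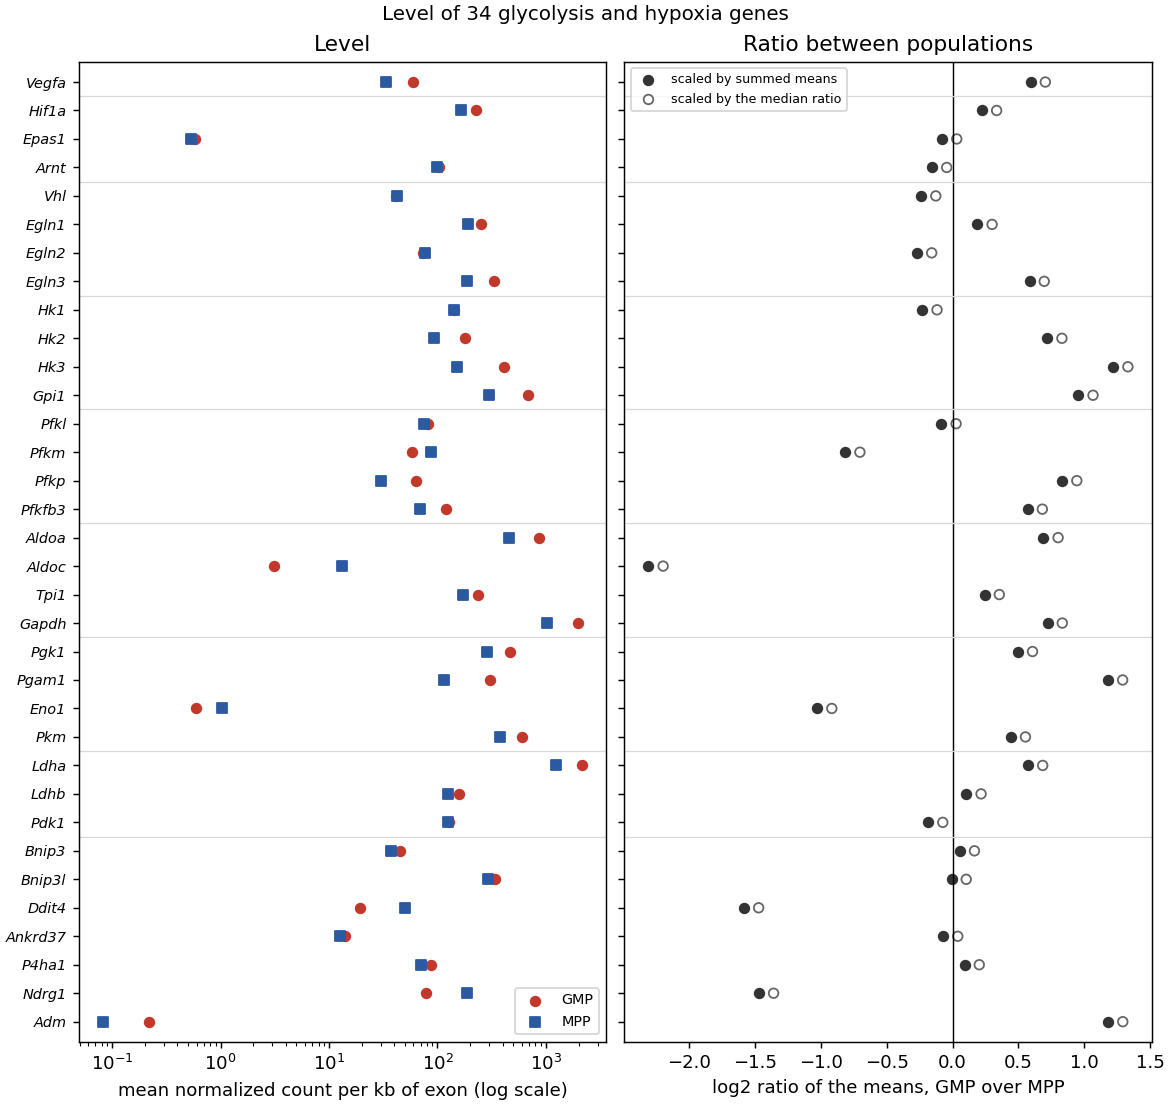
Left, mean normalized count per kb of exon on a log x axis for each member in GMP (circles) and MPP (squares). Right, log2 ratio of the means, GMP over MPP, after scaling by the summed means (filled) or by the median ratio (open). Hk3, Pgam1 and Gpi1 lie farthest right among the abundant enzymes, and Ndrg1 and Pfkm lie to the left.

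No VEGF relative or receptor was called among 5 tested in GMP and 5 in MPP by DESeq2. In GMP the lowest p of that list was that of Nrp1, a co-receptor of VEGF (0.36, SE 0.144, adjusted p = 0.141, DESeq2), and Vegfb had 0.18 (SE 0.104). The receptor gene Kdr was under the minimum in both, with means of 5.16 in GMP and 5.61 in MPP. Of 13 other HIF pathway regulators in GMP and 12 in MPP none was called, with medians of 0.0086 and -0.05. The lowest p there was that of Zmynd8, a chromatin reader that acts with HIF (0.16 in GMP and 0.28 in MPP).

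Of 28 other hypoxia-induced genes tested in GMP 3 fell and none rose. They were Gbe1, the glycogen branching enzyme (-0.39, SE 0.0796, adjusted p = 0.000133, DESeq2), Mxi1, a MYC antagonist (-0.34), and Anxa2, a membrane-binding annexin (-0.42), in the authors' deposited table. The median of that list was -0.02 in GMP and -0.05 in MPP, where none of 27 was called. The pentose phosphate pathway leaves glycolysis towards NADPH and ribose. Of 8 tested pentose phosphate genes in GMP 7 lay below 0 and 2 were called, Taldo1, transaldolase (-0.44, SE 0.0870, adjusted p = 0.000107, DESeq2), and Pgd, 6-phosphogluconate dehydrogenase (-0.31, SE 0.0753, adjusted p = 0.00394, DESeq2). Of 7 tested in MPP 6 lay below 0 and none was called. Of 18 other genes of glycolysis and glucose entry in GMP, Fbp1, which runs the phosphofructokinase step backwards, was the only one called (-1.02, SE 0.259, adjusted p = 0.00534, DESeq2), at a mean of 45.0, and the list's median was 0.0055. Of 18 genes of pyruvate and lactate handling in GMP 13 lay below 0, with a median of -0.16 and none called. The lowest p was that of Bsg, the chaperone of lactate transporters (-0.18, adjusted p = 0.104, DESeq2). In MPP, where 0 of 17 were called by DESeq2 and 12 lay below 0, it was that of Pdha1, a subunit of pyruvate dehydrogenase (-0.31, adjusted p = 0.118, DESeq2).

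Markers of other blood cells moved in GMP beside Vegfa, and their part in its fall was not tested. Of 10 mast cell and basophil markers 6 were tested in GMP, and 3 fell, namely Cma1 (-1.71), Csrp3 (-0.94) and Gata2 (-0.37), in the authors' deposited table. Ms4a2 (-1.28), Hdc (-0.28) and Cpa3 (-0.28) were marked as outliers and carry no p-value, Fcer1a (-0.64), Mcpt8 (-0.05) and Kit (0.0082) were not called, and Prss34 was under the minimum. The means of the list summed to 13983 in GMP and 9344 in MPP, and none was at 0. Kit, at 6397, is also the gate marker of all these cells. Of 8 tested monocyte and macrophage markers 3 rose in GMP, namely Csf1r (0.56), Ctss (0.67) and Cd68 (0.34). Not called were Emr1 (0.72), C1qc (0.15), C1qb (0.02), Cx3cr1 (-0.30) and Ly86 (-0.18), Ccr2 (0.40) was marked as an outlier, and C1qa was under the minimum. The 10 markers of that list summed to 3249. Of 6 tested megakaryocyte and platelet markers Vwf (1.01) and Pf4 (1.35) rose, and the 9 of the list summed to 634. Gp5 (0.40), Itga2b (0.11), Gp1ba (0.04) and Gp9 (-0.34) were not called in GMP. Of 7 tested in MPP 6 lay above 0, among them Gp5 (0.47) and Itga2b (0.44), and the median was 0.24. Pf4, the 1 below 0 there, had -0.92 (SE 0.384) and was not called. Of 3 tested neutrophil markers Mmp8 rose (1.36), at a mean of 54.1, and Cxcr2 (0.43) and S100a8 (-0.42, at a mean of 29.2) were not called. Under the minimum, S100a9, Ngp, Ltf and Camp had means of 4.94, 4.86, 0.933 and 1.80, and Retnlg was at 0. Of 8 tested granulocyte-monocyte progenitor markers Ctsg (-0.31) and Ms4a3 (-0.40) fell in GMP. Cebpe (-0.41), Fcgr3 (-0.32), Fcgr2b (-0.26), Mpo (0.08), Prtn3 (0.04) and Kit were not called, and Elane (-0.08) was marked as an outlier. Of 7 tested MPP and early progenitor markers Mecom (-0.85) fell in GMP. Ly6a (0.42), Flt3 (0.26), Meis1 (0.25), Cd48 (-0.12), Cd34 (-0.01) and Kit were not called, and Slamf1 was under the minimum. In MPP, Tie1 (0.77) rose in the endothelial list, and no mast cell, monocyte, neutrophil or progenitor marker was called by DESeq2. Outliers were marked for 4 of 9 neutrophil, 4 of 10 monocyte and 5 of 9 GMP markers in MPP. In GMP no erythroid (2 tested), endothelial (4 tested) or lymphoid marker (1 tested) was called, and 4 of 11 erythroid markers were at 0. The most abundant marker of each remaining list in GMP was Mpo (mean 200049) for the progenitors, Ccr2 (1394) for monocytes, Cxcr2 (641.6) for neutrophils, Itga2b (279) for platelets, Tfrc (2535) for erythroid cells, Pecam1 (1274) for endothelium and Cd79b (154) for lymphocytes.

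Several members share sequence with copies elsewhere in the genome, and reads from them could be split or dropped by the counting. Of the 75-base windows in annotated Vegfa transcripts 0% occur in another annotated gene, as for Hk2, Hk3, Arnt, Vhl and the Egln genes, while for Aldoa it was 0.54% and for Pkm 17.8%. In the principal transcript the share was 80.3% for Gapdh, 67.5% for Pgk1, 65.4% for Eno1, 46.3% for Bnip3 and 40.6% for Pgam1. Eno1, the enolase of most tissues, had means of only 3.20 in GMP and 5.58 in MPP and was not tested. Its retrogene copy Eno1b, listed under the older symbol Gm5506, had 2.85 and 3.13. Gapdh had a mean of 8131 in GMP. Over all annotated transcripts the shared part was 22.6% for Gapdh and 23.0% for Eno1. The effect of shared sequence on the counts was not tested. Eno3, the muscle enolase, was tested in both populations, at means of 66.6 in GMP and 66.7 in MPP, and had log2 fold changes of 0.01 (SE 0.220) and 0.32 (SE 0.257), neither called. Exons of other genes overlap 22.7% of the exon bases of Ankrd37 (Lrp2bp), 22.3% of those of Bnip3 (Gm45507), 15.3% of those of Pkm (Gm49759), 11.5% of those of Gpi1 (Gm26762) and 10.2% of those of Pfkm (Gm26513). Gm49759 and Gm26513 lie on the same strand as Pkm and Pfkm, and the other overlapping genes named lie on the opposite strand. Whether the counting used strand is not given in the sources used here, and strand would not separate the same-strand pairs.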

How the data were processed

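RNA of sorted progenitors (2 ng, amplified) was sequenced as single-end reads of 75 bases, per the labels' protocols. STAR, DESeq2 and mm10 are named in the submitters' processing notes, while a read counter or gene annotation is not given there. The authors deposited, per gene, a mean normalized signal of the 8 libraries of a population. The log2 fold change is that of Tet2KO over WT by the name of each deposited table, and its SE is deposited as a score in log2 units. The p-value and adjusted p-value are the authors' own, as deposited. Recomputing the p-value from fold change and SE differed by at most 0.00206 (log10 units), and the Benjamini-Hochberg value by at most 2.4e-05. No library totals are in the tables.

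The members and all gene lists were chosen with earlier results of these data known. All tested genes entered each adjustment. The genes named are all 34 members, called genes of each other list (up to 5) or else the 1 or 2 of smallest p, and, of each marker list, the called genes and the most abundant one. Vegfb, Kdr, gate genes and other uncalled markers were named after their values were seen, and 1 marker is not reported here. The difference between populations was divided by the root of the summed squared SEs, two-sided, with Benjamini-Hochberg adjustment. Levels per kb used the union of exons in GENCODE M21, and shared windows its transcripts. Alternatives were recentring, an empirical null, other minimum means, a stricter threshold, outlier-marked genes, correlated errors and other scalings of levels. Replicates are separate mice, per the labels. Computation used pandas 2.3.3 and numpy 2.4.6 in Python 3.11.15, with scipy 1.17.1 for tests, and drawing used matplotlib 3.10.9.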

Additional observations from a re-analysis of the deposited data

How the results depend on the processing

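With an empirical null, which divides the statistic by its robust spread (1.35 in GMP and 1.15 in MPP), 1 member was called in GMP, Vegfa, in place of 3. The same setting left 72 of 456 called genes in GMP and 18 of 73 in MPP, where 12 were higher and 6 lower in place of 41 and 32. At an adjusted p of 0.01 the counts were 198 in GMP and 36 in MPP, and Aldoa and Vegfa remained called. Without a minimum mean Pkm was not called (adjusted p = 0.0601). Vegfa in GMP was called under all 6 alternatives, with an adjusted p of 2.67e-06 by Benjamini-Hochberg under the empirical null. The other alternatives keep its p nearly as it was, the smallest of the table, so they could not have undone the call. In MPP no member was called under any of the 6, and the difference between populations was called for 0 members under its 3. With correlated errors its lowest adjusted p was 0.230. Scaled by the median ratio, the median log2 ratio of member levels, GMP over MPP, was 0.34 in place of 0.23. No paired analysis was possible because the tables hold no values per library, and for the same reason leaving out a replicate was not run. The SE limits what can be seen, with a median of 0.105 for tested members in GMP and 0.140 in MPP.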
